A study of Mus musculus with 4 samples.

Results

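Chemokines and their receptors were followed across the cells of the mouse digit tip. Members were taken by a rule on gene symbols: the Ccl, Cxcl, Ccr, Cxcr and Ackr families with a number, plus Cx3cl1, Cx3cr1, Xcl1, Xcr1, Pf4 and Ppbp, without Ccl19, the Ccl21 genes, Ccr7 and Ackr4. The pattern matched 65 genes, 7 of these were left out, and 58 members remained of 33696 genes in the count matrices. At least 1 read molecule, counted by its unique molecular identifier (UMI), was found for 57, 57, 57 and 58 members in the 4 libraries.

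The study asked how loss of lymphatic function changes regeneration of the amputated terminal phalanx (P3), and it sequenced single cells from 4 pools of digits. All 4 libraries came from P3 digits of female C57BL/6 mice aged 6 to 8 weeks, with no transgene, and each library pooled the hind limb digits of 10 mice. The SAR131675 diet library came from mice fed chow with 30 mg/kg of SAR131675, an inhibitor of the lymphatic growth factor receptor VEGFR3. The labels give 8 days of this diet, while the paper has it begin before amputation and last for the whole study. The diet control library came from untreated mice. The LNR library came from digits after lymph node removal on that limb (LNR), and the LNR control library from the other, sham-operated side, labelled as untreated. In the paper the digits of all 4 libraries were collected after P3 amputation. For the diet libraries its text and a figure legend give different days after amputation, so no day is printed here. Each condition was 1 library with a batch number of its own, so batch and condition cannot be told apart, no test across animals was possible, and every interval below is a 95% interval for counting error only.

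Chemokines are small secreted proteins that bind heparan sulfate on vessels and matrix and direct migrating leukocytes through receptors coupled to inhibitory G proteins. Inflammatory chemokines are induced at wounds and bring in neutrophils, monocytes and lymphocytes, while homeostatic ones such as Cxcl12 hold and place cells in resting tissue. Atypical receptors (Ackr) bind chemokines without G protein signalling and remove, carry or present them, among others on lymphatic and venous endothelium. In healing skin and bone the system serves to recruit neutrophils first and monocytes, the precursors of macrophages and osteoclasts, after them.

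After filtering, 29076 cells were kept in the SAR131675 diet library, 24030 in the diet control, 19827 in LNR and 20669 in the LNR control, with medians of 11316, 10712, 5725 and 5851 UMIs per cell. The deposited matrices summed to between 168507188 and 585284877 UMIs per library. Within the diet pair 210 kept barcodes were shared (0.874% of the smaller library), within the LNR pair 101 (0.509%), and between pairs at most 2. Cells were clustered in each experiment without the 65 genes that the pattern matched, and classes were named "X-like" from marker genes, so the members did not form the classes. Named classes with 50 or more cells in all 4 libraries numbered 19, and 828 to 1096 cells per library stayed unnamed, some in clusters that mixed markers of leukocytes with those of keratinocytes or fibroblasts. Levels are given as counts per 1000000 UMIs of the summed cells (CPM), in the order SAR131675 diet, diet control, LNR and LNR control unless stated. The diet matrices were written by another Cell Ranger version than the LNR matrices, so levels are set side by side across the experiments and not compared.

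Many members are neighbours in the genome. In RefSeq's mouse gene order, allowing at most 3 other genes in between, Cxcl5, Ppbp, Pf4, Cxcl3, Cxcl15, Cxcl1 and Cxcl2 formed a run of 7 members, Ccl2, Ccl7, Ccl11, Ccl12, Ccl8 and Ccl1 a run of 6, and Ccl5, Ccl9, Ccl6, Ccl3 and Ccl4 a run of 5. Neighbours in the first run differed in where they were found. The promoters of 3 of them, the neutrophil attractants Cxcl1, Cxcl2 and Cxcl3, are shown because they share 1 motif and yet did not have the same leading cell class. The motif GGGA, any 1 base, then TTTCC, of the kind bound by NF-κB, was searched on both strands in the 250 bases before each start site. It was found in 117 of 32851 mouse promoters (0.356%), and in 4 of the 44 members with a promoter entry, Cxcl1, Cxcl2, Cxcl3 and Ccr3. It was chosen after 7 motifs were tried. Among these, GAAA, any 2 bases, then GAAA was not a spelling of it, and was found in 2.98% of promoters and in the members Cxcl10 and Cxcl14. The looser spelling GGGA, any 2 bases, then TTCC was found in 1.21% of promoters and added Ccl1 and Cxcl10. The 100 bases before the start site follow, from RefSeq GRCm38.p6 and all on the + strand of chromosome 5, with the match in capitals. The match began 71, 97 and 73 bases before the start. The regions are chr5:90891145-90891244 for Cxcl1, chr5:90903799-90903898 for Cxcl2 and chr5:90786001-90786100 for Cxcl3.
Cxcl1: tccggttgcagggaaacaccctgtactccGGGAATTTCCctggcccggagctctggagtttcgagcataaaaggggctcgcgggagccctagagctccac
Cxcl2: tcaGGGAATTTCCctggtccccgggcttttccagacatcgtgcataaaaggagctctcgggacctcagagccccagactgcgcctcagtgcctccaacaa
Cxcl3: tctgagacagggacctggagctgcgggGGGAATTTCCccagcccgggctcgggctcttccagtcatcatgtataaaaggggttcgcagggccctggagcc
A match of letters in this window is a description of the sequence and does not show binding.

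Members differed in the class that carried them, and many, not all, had the same leading class in every library. Of the 51 members with 100 or more UMIs over the 4 libraries, 26 had their highest CPM in the same class in all 4, and 33 did when only the 19 classes common to all libraries were compared. Neutrophil-like cells led for Cxcl2, Cxcl3, Ccl3, Ccl4, Cxcr2 and Ccr1. Macrophage-like cells led for Pf4, Ccl8, Ccl9, Ccl12, Ccl24, Cxcl13 and Ppbp, and T or innate lymphoid-like cells for Ccl5, Xcl1, Cxcr6, Ccr4, Ccr6 and Ccr8. Structural classes led for the rest of the 26: mural-like cells for Cxcl1, blood endothelial-like cells for Ackr1, synovial fibroblast-like cells for Ackr3, sweat gland-like cells for Cxcl17 and the remaining mesenchymal cells for Ccl11, with dendritic-like cells leading for Ccl17 and Ccr9. The lead was beyond counting error in all 4 libraries for 20 of the 26. For Cxcl3, Ccr4, Ccr6, Ccr8, Ccr9 and Ppbp it was within counting error in 1 or more, for Ppbp in 3, and unnamed cells held 81.2% of the Ppbp UMIs of the diet control. In the diet pair unnamed cells also held 58% and 55.1% of Ccr6 UMIs, 58.1% and 63.5% of Ccr8 and 45.2% and 39.4% of Cxcr6, against 32.1% and 34.1%, 29% and 36.5%, and 45.2% and 51.4% in T or innate lymphoid-like cells. The other 7 members had under 100 UMIs, and their leading classes were not compared: Cxcl11 had 90 UMIs over the 4 libraries, Cxcl15 56, Ccr3 40, Ccl26 19, Ccl27b and Cxcr1 10 each and Ccr1l1 3.

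**Figure D1:**
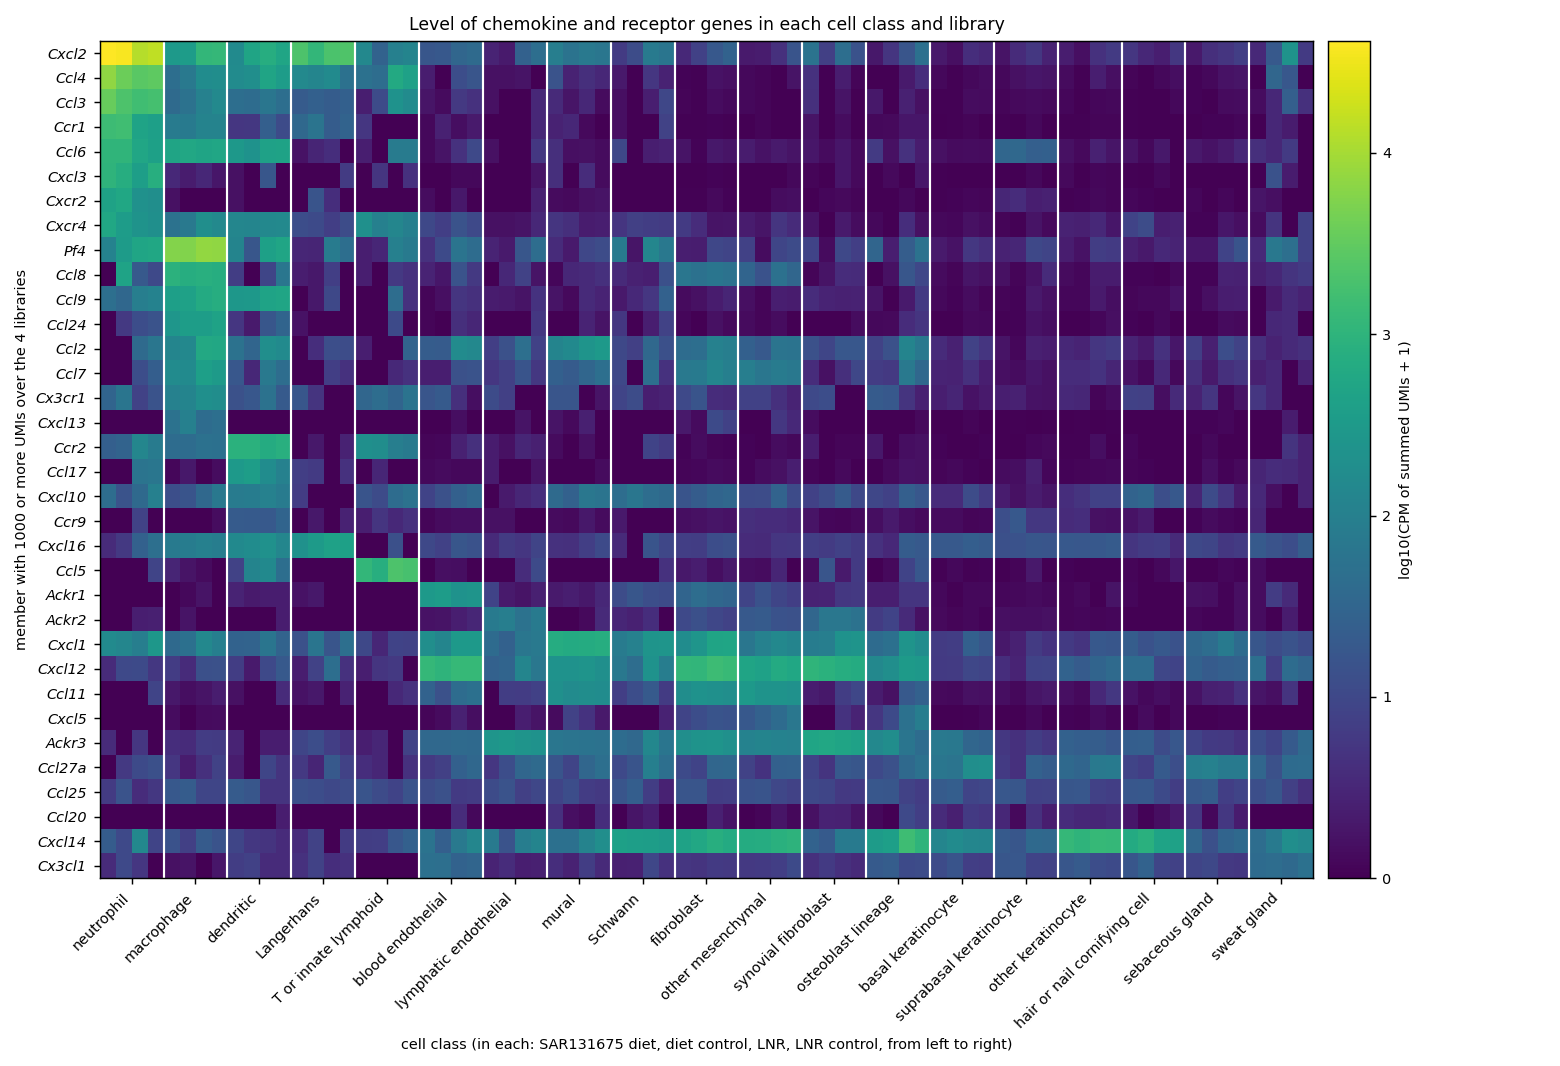
Heat map of 34 members with 1000 or more UMIs over the 4 libraries (rows) in the 19 classes with 50 or more cells in every library (columns); each class has 1 strip per library (SAR131675 diet, diet control, LNR, LNR control, left to right), coloured by log10(CPM + 1). Neutrophil-like cells are brightest for Cxcl2, Ccl3 and Ccl4, macrophage-like cells for Pf4, and mural-like cells for Cxcl1, in all 4 libraries.

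The neutrophil-attracting CXC ligands were divided between leukocytes and structural cells. Cxcl2, which signals through Cxcr2, was at 41515 CPM in neutrophil-like cells of the SAR131675 diet library (interval 40863 to 42175), 37574 in the diet control (36748 to 38415), 12456 in LNR (12194 to 12721) and 15043 in the LNR control (14746 to 15346). Those cells, 145, 79, 276 and 238 in number, held 60.3%, 54.3%, 34.5% and 41.4% of all Cxcl2 UMIs, and unnamed clusters held 10.5%, 12.8%, 30.9% and 27.3%. Langerhans-like cells, the resident dendritic cells of the epidermis, also carried Cxcl2, at 2128, 1121, 2049 and 2199 CPM. The mixed myeloid cells of the diet pair were at 1183 and 1519 CPM and the monocyte-like cells of the LNR pair at 4281 and 4523. Cxcl2 was at 1.09, 0.569, 2.98 and 2.28 CPM in basal keratinocyte-like cells, the class used as a measure of free RNA for leukocyte genes. When every cell was thinned to 1500 UMIs, 90.2%, 94.4%, 55.1% and 50.5% of neutrophil-like cells had a Cxcl2 UMI (unthinned 91.0%, 93.7%, 79.7% and 83.2%), against 0.184%, 0.035%, 0.543% and 0.449% of basal keratinocyte-like cells (unthinned 1.11%, 0.594%, 1.92% and 1.56%). Thinning left out 13 of 145, 8 of 79, 178 of 276 and 147 of 238 shallower neutrophil-like cells. Class medians were 2454, 2422, 1224 and 1236 UMIs for neutrophil-like cells and between 7539 and 12319 for basal keratinocyte-like cells. In the LNR pair most of the class was left out, so its thinned and unthinned shares cover different cells. That class holds a cluster with little Cxcl2, described below, whose part in the thinned cells was not counted. Cxcl3, another ligand of Cxcr2, followed Cxcl2 at 1002, 766, 385 and 786 CPM in neutrophil-like cells; in the LNR pair monocyte-like cells stood at 350 and 680, within counting error of the neutrophil-like level.

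Cxcl1 was found in the walls and stroma. Mural-like cells, the pericytes and smooth muscle of vessels, were at 734, 660, 683 and 758 CPM, and fibroblast-like cells at 178, 255, 497 and 513. Mural-like cells were ahead of the next class in every library beyond counting error, yet they held only 25.7%, 18.0%, 10.8% and 11.4% of Cxcl1 UMIs. In each experiment a single fibroblast-like cluster held more, at 32.6%, 42.9%, 22.8% and 23.5%. At 1500 UMIs per cell, 33.1%, 29.1%, 39.1% and 39.2% of mural-like cells had a Cxcl1 UMI (unthinned 43.7%, 45.4%, 48.6% and 49.9%), against 0.595%, 0.49%, 2.9% and 2.07% of basal keratinocyte-like cells (unthinned 2.74%, 2.82%, 8.99% and 6.63%). Cxcl5, also a Cxcr2 ligand, was led by the remaining mesenchymal cells in the diet pair, at 17.6 and 26.4 CPM, and by osteoblast lineage-like cells in the LNR pair, at 52.3 and 87.9. Ppbp, the platelet chemokine, had 88, 191, 33 and 18 UMIs in all, and its level in macrophage-like cells stayed at 2.2 to 7.05 CPM.

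**Figure D2:**
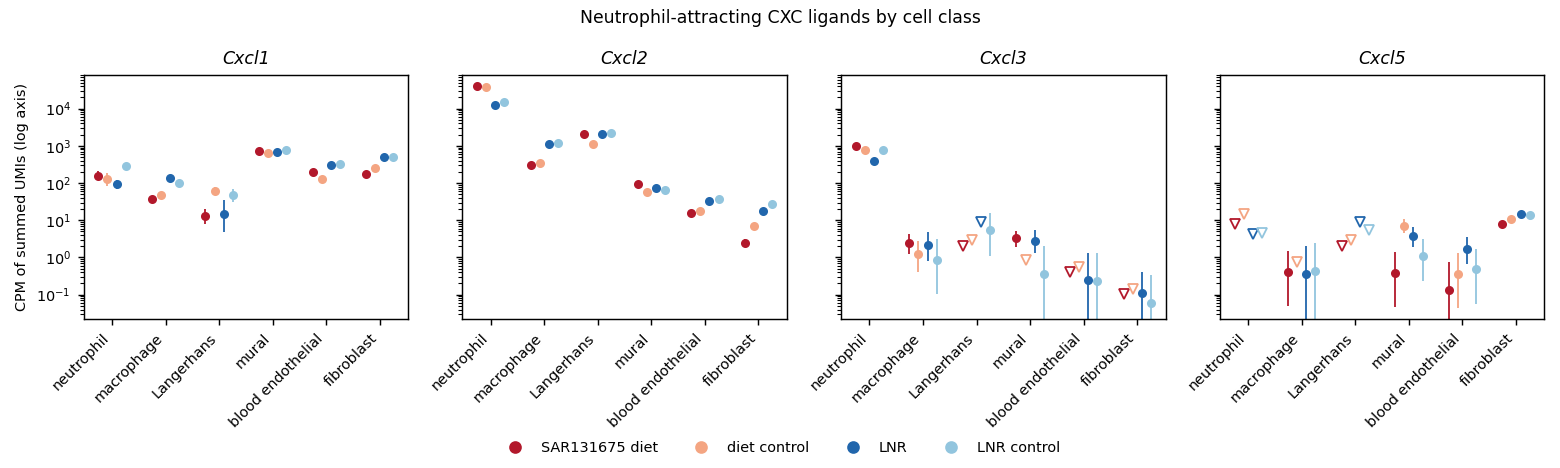
CPM (log axis) of Cxcl1, Cxcl2, Cxcl3 and Cxcl5 in 6 cell classes, 1 point per library with its 95% Poisson interval; open triangles mark classes with 0 UMIs, drawn at the CPM of 3 counts. Among these classes Cxcl2 and Cxcl3 are highest in neutrophil-like, Cxcl1 in mural-like and Cxcl5 in fibroblast-like cells in every library.

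Cxcr2, the receptor of these ligands on neutrophils, was at 465, 555, 212 and 191 CPM in neutrophil-like cells, against 15.1 or less in any other named class of 50 or more cells. A share of its UMIs lay elsewhere: suprabasal keratinocyte-like cells held 180, 246, 36 and 46 UMIs, 42.8%, 55.3%, 11.4% and 19.2% of the total, at only 2.15, 2.92, 1.4 and 1.64 CPM. Cxcr1, the second receptor of this group in mouse, had 10 UMIs over all libraries.

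The LNR experiment split its neutrophil-like cells into a pair of clusters that differed in their chemokines. The first, 214 LNR and 178 LNR control cells led by Il1b and Acod1, had Cxcl2 at 30671 and 41448 CPM, Ccl4 at 6911 and 8331, Ccl3 at 4039 and 4963 and Cxcr2 at 417 and 439. The second, 62 and 60 cells led by Ngp and Camp, genes of granules made before neutrophils leave the marrow, had Cxcl2 at 429 and 414 CPM, Ccl4 at 35.9 and 62.6, Ccl3 at 19.2 and 12 and Cxcr2 at 76.6 and 53.0. Cxcl3 was at 968 and 2203 CPM in the first cluster, and no Cxcl3 UMI was found in the second, where 3 counts would be 7.18 and 7.22 CPM. Ccr1 followed the same order, at 1088 and 982 CPM against 64.6 and 77.1. LNR and LNR control had the same order for these 6 genes. The diet experiment had a single neutrophil-like cluster, led by Il1b, and its Ngp and Camp cells fell into a mixed myeloid cluster of 143 and 83 cells.

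Among the interferon-induced ligands of Cxcr3, the receptor of activated T cells, Cxcl9 and Cxcl11 had few UMIs, while Cxcl10 had 8809 over the 4 libraries. Cxcl10 was highest in the mixed myeloid cells of the diet pair (156 and 109 CPM), in dendritic-like cells of LNR (105) and in neutrophil-like cells of the LNR control (102). Dendritic-like cells of the other libraries were at 82.7, 85.5 and 82.8. Only in the SAR131675 diet library was the leading class ahead beyond counting error. Most UMIs lay outside these classes. The cluster with the most Cxcl10 UMIs was hair or nail cornifying cells in the SAR131675 diet library (23.7%). It was a fibroblast-like cluster in the diet control, LNR and LNR control (24%, 12.2% and 15.1%). Cxcl9 had 94, 100, 106 and 54 UMIs in all, and Cxcl11 fewer still. Hair or nail cornifying cells, 1601 and 632 in the diet pair, held 38.3% and 30% of its Cxcl9 UMIs. Schwann-like cells, the glia of nerves, held 43 of the 51 Cxcl11 UMIs of the SAR131675 diet library in 28 cells (84.3%, 22.5 CPM), 17 of 20 in the diet control in 13 cells (85%, 13.8 CPM), 0 of 11 in LNR, where 3 counts would be 4.41 CPM, and 2 of 8 in the LNR control (3.52 CPM). Cxcr3 itself had 208 UMIs over the 4 libraries, with 6.24, 7.58, 11.5 and 7.47 CPM in macrophage-like cells. T or innate lymphoid-like cells were at 23.9, 4.21, 14.8 and 3.59 CPM, from 16, 2, 6 and 1 UMIs.

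Cxcl12, the homeostatic ligand of Cxcr4 and Ackr3 that retains leukocytes and stem cells, was shared by fibroblasts and vessels. Fibroblast-like cells were at 1160, 1103, 1448 and 1313 CPM and blood endothelial-like cells at 1171, 1018, 1235 and 1242, so that endothelial cells led in the SAR131675 diet library, within counting error, and fibroblasts in the other 3; synovial fibroblast-like cells came next at 1044, 902, 758 and 688. Lymphatic endothelial-like cells were far lower, at 26.6, 30.2, 125 and 66.1 CPM. At 1500 UMIs per cell a Cxcl12 UMI was found in 45.9%, 49.6%, 59.5% and 56.8% of fibroblast-like cells (unthinned 68.8%, 72.7%, 74.4% and 70.8%), against 0.907%, 0.787%, 1.18% and 1.35% of basal keratinocyte-like cells (unthinned 5.24%, 4.05%, 5.38% and 5.42%). Cxcr4, its signalling receptor, was carried by neutrophil-like cells (570, 349, 236 and 195 CPM), by the mixed myeloid cells of the diet pair (356 and 259), by B-like cells (303, 305, 187 and 135, from 69, 45, 36 and 56 cells) and, in the LNR pair, by monocyte-like cells (290 and 206). By UMIs, a macrophage-like cluster held the most Cxcr4 in the diet control, LNR and LNR control (16.2%, 16.6% and 15.4%). Its level there was 94.4, 384 and 325 CPM, and in the LNR pair that cluster was led by Vsig4 and Trem2. In the SAR131675 diet library the mixed myeloid cells held the most (16.3%). Unnamed cells held 13.1%, 16.5%, 21.5% and 19.6% of Cxcr4 UMIs.

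The atypical receptors were carried by structural classes, and Ackr2 did not have the same leading class in all 4 libraries. Ackr3, which takes up Cxcl12, was at 510, 578, 505 and 435 CPM in synovial fibroblast-like cells, the cells of the joint lining, and at 258, 291, 247 and 222 in lymphatic endothelial-like cells, second in every library. Blood endothelial-like cells stood at 35.3, 34.9, 38.1 and 37.5 CPM. Basal keratinocyte-like cells carried Ackr3 as well, at 72.7, 68.2, 32.5 and 27.1 CPM, and so held 31.1%, 27.6%, 8.05% and 9.31% of its UMIs; at 1500 UMIs per cell 9.67%, 10.4%, 5.07% and 4.39% of them had an Ackr3 UMI (unthinned 43.8%, 39.3%, 22.2% and 18.3%), against 0.158%, 0.372%, 0.765% and 0.836% of macrophage-like cells (unthinned 1.53%, 1.51%, 1.53% and 1.39%, class medians 6953, 6907, 3234 and 2935 UMIs). Ackr1, the Duffy antigen receptor of venules, was at 302, 361, 227 and 240 CPM in blood endothelial-like cells, against 30.0, 43.5, 33.9 and 29.3 in fibroblast-like cells, the next class. Ackr2, a scavenger of inflammatory CC chemokines known from lymphatic endothelium, was at 74.9, 94.6, 53.9 and 80.7 CPM in lymphatic endothelial-like cells. Synovial fibroblast-like cells were at 32.2, 67.8, 67.0 and 53.8, and led in the LNR library within counting error. They held 33.5%, 52.8% and 49.3% of Ackr2 UMIs in the diet control, LNR and LNR control. In the SAR131675 diet library a fibroblast-like cluster held the most, 29.3%.

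Pf4, named for platelets but also made by tissue macrophages, was at 5860, 5645, 7390 and 7206 CPM in macrophage-like cells. At 1500 UMIs per cell 91.9%, 90.9%, 92.5% and 94.3% of them had a Pf4 UMI (unthinned 95%, 93.9%, 95.9% and 96.2%), against 0.17%, 0.0875%, 0.452% and 0.673% of basal keratinocyte-like cells (unthinned 1.44%, 0.727%, 3.04% and 2.40%). Cxcl14, a ligand of epithelia whose receptor is not settled, was led by keratinocyte-like cells of follicle and nail type at 1176, 1014, 1225 and 1174 CPM, except in the LNR library, where osteoblast lineage-like cells stood at 1539 (1001 in the LNR control, 344 and 401 in the diet pair). Cxcl13, which directs B cells through Cxcr5, was at 54.9, 101, 41.9 and 47.9 CPM in macrophage-like cells. In the LNR library a fibroblast-like cluster held 37.7% of its UMIs, the most of any cluster there. In each library 10 cells held much of Cxcl13: 82.9%, 93.7%, 57.3% and 63.4% of its UMIs. Cxcr5 was at 237, 287, 53.5 and 8.99 CPM in B-like cells, from 61, 47, 4 and 1 UMIs in 69, 45, 36 and 56 cells. Cxcl17, a mucosal chemokine, was found in sweat gland-like cells at 41.0, 38.4, 81.2 and 44.6 CPM, with lymphatic endothelial-like cells next at 3.84 to 8.7.

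Cxcl16, a membrane-bound ligand of Cxcr6, was at 216, 323, 431 and 427 CPM in Langerhans-like cells, and Cxcr6 at 286, 280, 118 and 118 in T or innate lymphoid-like cells. Basal keratinocyte-like cells held 30.9%, 28.7%, 21.4% and 22.4% of Cxcl16 UMIs. Cx3cl1, the tethered ligand of Cx3cr1, was at 48.7, 46.8, 26.8 and 31.0 CPM in blood endothelial-like and 39.9, 43.0, 37.4 and 51.5 in sweat gland-like cells. By UMIs, a suprabasal keratinocyte-like cluster held the most Cx3cl1 in the diet pair (14.1% and 16.4%). A keratinocyte-like cluster of follicle and nail type did in LNR (10.9%), and blood endothelial-like cells did in the LNR control (12.2%). Cx3cr1, a receptor of resident macrophages and monocytes, was at 105, 121, 196 and 185 CPM in macrophage-like cells, and at 130 and 139 in the mixed myeloid cells of the diet pair. The cluster with the most Cx3cr1 UMIs was macrophage-like in each library and held 20.8%, 21.3%, 45.7% and 48.7% of them.

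Within the macrophage-like class, the receptor Cx3cr1 and the ligand Pf4 marked opposite clusters. A small cluster led by Vsig4 and Trem2 held 87 and 68 cells in the diet pair and 129 and 103 in the LNR pair; there Cx3cr1 was at 596, 628, 649 and 759 CPM, while the other clusters of 50 or more cells, led by C1q genes, Mrc1 or Retnla, had 71.8 or less. A further cluster of 21 LNR and 12 LNR control cells, led by Rsad2 and Ifit1, was left out of these ranges; Cx3cr1 was at 116 CPM in its LNR cells and Ccl8 at 2932. Pf4 was at 793, 694, 1914 and 1377 CPM in the Vsig4 cluster and between 4710 and 9595 in the others. Ccl8 was at 2.74, 1.57, 10.3 and 2.03 CPM in the Vsig4 cluster against 244 to 2201, and Ccl24 at 28.8, 29.9, 39.6 and 67.1 against 238 to 747. Ccl6 was at 141, 132, 125 and 120 CPM against 354 to 904. The receptor Ccr1 ran the other way, at 200, 202, 221 and 277 CPM against 103 or less. The order of the Vsig4 cluster and the others was the same in all 4 libraries for these 6 genes.

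**Figure D3:**
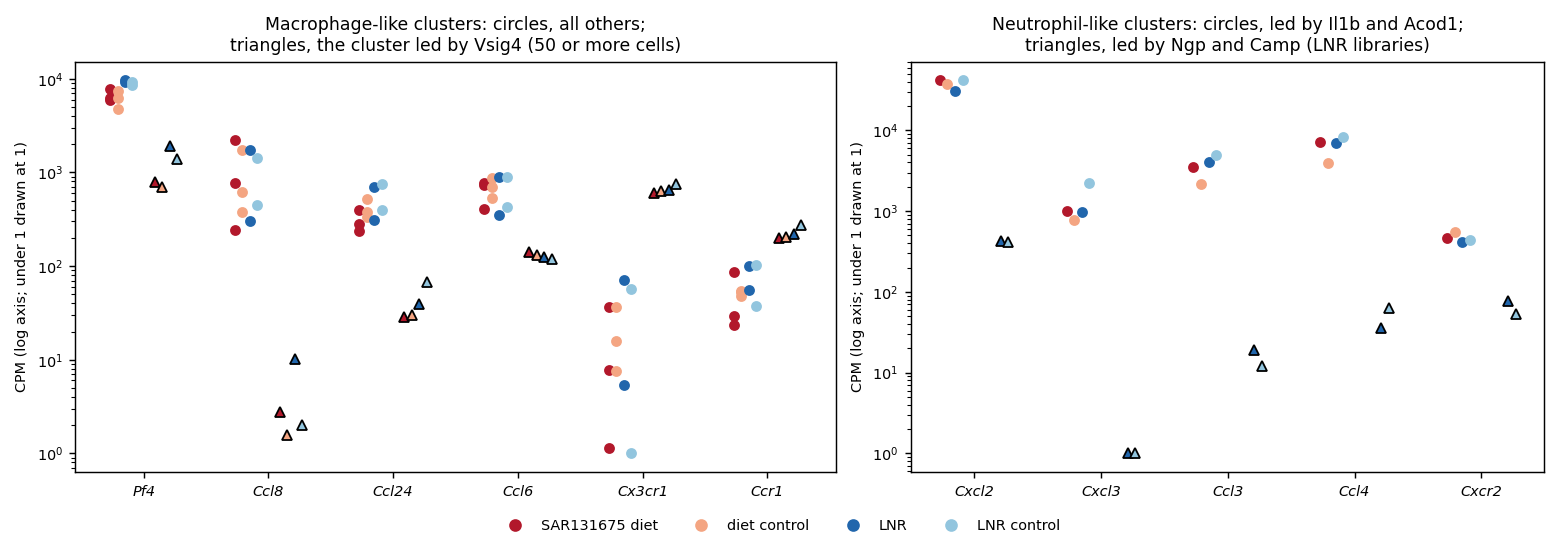
CPM (log axis, values under 1 drawn at 1) of members in clusters of 50 or more cells, 1 point per cluster and library, macrophage-like on the left and neutrophil-like on the right. Triangles mark the cluster led by Vsig4, where Cx3cr1 and Ccr1 stand highest and Pf4, Ccl8, Ccl24 and Ccl6 lowest, and the LNR pair's cluster led by Ngp and Camp, lowest for all 5 genes drawn.

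The ligands that attract monocytes and eosinophils were found in leukocyte and stromal classes, which differed by ligand. Ccl2, the main ligand of Ccr2, was at 1290 and 1040 CPM in the mast-like cells of the LNR pair (176 and 141 cells; the diet experiment gave no mast-like class), at 128, 140, 601 and 581 in macrophage-like and at 119, 154, 249 and 318 in mural-like cells. The mixed myeloid cells of the diet pair were at 108 and 243 CPM of Ccl2, ahead of the other classes beyond counting error in the diet control. By UMIs, a fibroblast-like cluster held the most Ccl2 in the SAR131675 diet, diet control and LNR libraries (27.4%, 29.6% and 13.8%). Mural-like cells did in the LNR control (13.3%). Ccl7, which shares Ccr2, was at 1091 and 1204 CPM in mast-like cells and at 166, 158, 409 and 326 in macrophage-like cells, and fibroblast-like cells, at 71.5, 78.5, 124 and 98.8, held 41.4%, 49.5%, 40.5% and 39.8% of its UMIs. Ccl8 was at 921, 749, 808 and 743 CPM in macrophage-like cells and Ccl12, a further Ccr2 ligand of the mouse, at 43.6, 59.2, 66.8 and 34.3. Among the eosinophil attractants, Ccl11 was stromal, at 319, 238, 231 and 216 CPM in the remaining mesenchymal cells and 179, 223, 211 and 189 in fibroblast-like cells, and Ccl24 was at 266, 368, 378 and 459 in macrophage-like cells. Ccr3, the eosinophil receptor for both, had 14, 8, 9 and 9 UMIs in all. Ccr2 was at 906, 881, 679 and 806 CPM in dendritic-like cells, at 912 and 657 in the mixed myeloid cells of the diet pair and at 308 and 307 in the monocyte-like cells of the LNR pair. At 1500 UMIs per cell 64.2%, 54.3%, 49.1% and 57.8% of dendritic-like cells had a Ccr2 UMI (unthinned 88.0%, 79.2%, 65.0% and 71.4%, class medians 9387, 9401, 3677 and 3426 UMIs), and no more than 0.0249% of basal keratinocyte-like cells did.

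The inflammatory ligands Ccl3, Ccl4, Ccl5, Ccl6 and Ccl9 were divided by cell type. Ccl4 was at 7199, 3887, 2770 and 3011 CPM in neutrophil-like cells and Ccl3 at 3499, 2145, 1618 and 1777. T or innate lymphoid-like cells carried Ccl4 at 52.2 and 44.2 CPM in the diet pair and at 628 and 445 in the LNR pair. Ccl5 was at 1162, 772, 2141 and 1916 CPM in T or innate lymphoid-like cells, and at 1500 UMIs per cell 23.3%, 14.5%, 18.1% and 19.6% of them had a Ccl5 UMI (unthinned 25.0%, 16.3%, 19% and 20.6%), against at most 0.0302% of basal keratinocyte-like cells. Ccl9 was at 399, 433, 657 and 739 CPM in macrophage-like cells. Ccl6, its neighbour, was at 1045, 1058, 536 and 428 in neutrophil-like and 493, 581, 489 and 550 in macrophage-like cells, and it had an epidermal source too: suprabasal keratinocyte-like cells were at 32.2, 36.1, 24.2 and 25.0 CPM, and 2.53%, 3.38%, 2.05% and 2.49% of them had a Ccl6 UMI at 1500 UMIs per cell, against 0.0992%, 0.157%, 0.181% and 0.0748% of basal keratinocyte-like cells. Ccr1 was at 1446, 1599, 472 and 400 CPM in neutrophil-like cells.

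The chemokines of skin and lymphocytes followed epidermal layers and dendritic cells. Ccl27a, which draws Ccr10-bearing T cells to the epidermis, was at 62.7, 59.9, 189 and 204 CPM in basal keratinocyte-like cells, which held 57.2%, 60.3%, 56.5% and 59.5% of its UMIs, and at 91.6, 105, 80.0 and 74.4 in sebaceous gland-like cells. Ccr10 had 317 UMIs over the 4 libraries and no class ahead beyond counting error. Ccl17, a ligand of Ccr4, was at 308, 365, 175 and 106 CPM in dendritic-like cells, and Ccl22, its second ligand, at 124, 71.5, 112 and 30.4 in Langerhans-like and 16.0, 28.9, 130 and 76.2 in dendritic-like cells. Xcl1, made by activated lymphocytes, was at 386, 156, 461 and 807 CPM in T or innate lymphoid-like cells. Xcr1, its receptor on cross-presenting dendritic cells, was at 23.1, 17.5 and 9.2 CPM in dendritic-like cells of the SAR131675 diet, LNR and LNR control libraries and had 0 UMIs there in the diet control, where 3 counts would be 3.47 CPM. Unnamed clusters held 21 Xcr1 UMIs in the diet control, 77.8% of its total, and 27.1% in the SAR131675 diet library. Ccr6, the receptor of Ccl20, was at 107, 98.9, 56.7 and 53.8 CPM in T or innate lymphoid-like cells, and Ccr8, that of Ccl1, at 26.8, 40.0, 7.39 and 7.18. Ccl1 had 175 UMIs in all, and Ccl28, a mucosal ligand of Ccr10, 952 without a leading class.

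A pair of receptors usually described on leukocytes had most of their UMIs in the outer epidermis. Ccr9, known from gut-homing T cells and thymocytes, was at 12, 17.5, 4.52 and 4.72 CPM in suprabasal keratinocyte-like cells, from 1006, 1475, 116 and 132 UMIs, 76.8%, 86.7%, 60.1% and 59.7% of its total. Per UMI, dendritic-like cells were higher, at 20.5, 19.6, 18.8 and 30.2 CPM. At 1500 UMIs per cell 1.82%, 2.33%, 0.781% and 0.698% of suprabasal keratinocyte-like cells had a Ccr9 UMI (unthinned 12.9%, 17.1%, 4.76% and 5.22%, class medians 16281, 16095, 11004 and 10758 UMIs), against 0.0708%, 0.14%, 0.0302% and 0.0249% of basal keratinocyte-like cells. Ccr4, the receptor of Ccl17 and Ccl22, had 81.9%, 84.0%, 78.6% and 68.2% of its UMIs in suprabasal keratinocyte-like cells at 3.24, 2.99, 1.71 and 1.61 CPM, while T or innate lymphoid-like cells were at 20.9, 23.1, 4.93 and 10.8. Ccl25, the ligand of Ccr9, was at near equal levels in unlike classes, with 20.6, 22.5, 7.69 and 8.52 CPM in basal keratinocyte-like, 15.2, 15.8, 6.02 and 6.28 in fibroblast-like and 17.7, 20.8, 8.16 and 8.35 in macrophage-like cells, so its UMIs named no source.

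For the SAR131675 diet, all kept cells of the library were first summed and set against the diet control. Of 49 members with 100 or more UMIs in the pair, 1 was higher by 2-fold or more and 1 lower, where 0.718% of 18944 genes were higher and 0.380% lower. In such sums more cells of a type and more RNA per cell cannot be told apart. Ccl20, which attracts Ccr6-bearing lymphocytes and dendritic cells to epithelium, had 697 against 222 UMIs (2.05 against 0.835 CPM, log2 ratio 1.30, interval 1.08 to 1.52). Ppbp had 88 against 191 UMIs (log2 ratio -1.47, interval -1.85 to -1.10), and an unnamed cluster of 3 and 6 cells led by Nrgn, Gp9 and Itga2b held 31.8% and 79.6% of them. The median log2 ratio was 0.03 over the 49 members (25 above 0) and -0.01 over the 18944 genes tested (8985 above 0). By axis, the 5 tested neutrophil-attracting ligands had a median of -0.15 (2 above 0), the 6 monocyte- and eosinophil-attracting ligands -0.04 (2 above 0), the 5 ligands Ccl3, Ccl4, Ccl5, Ccl6 and Ccl9 0.13 (3 above 0) and the 3 atypical receptors -0.26 (0 above 0).

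For LNR against the LNR control, 5 of 44 members were higher by 2-fold or more and 0 lower, where 0.261% of 16085 genes were higher and 0.255% lower; no test was run and no p-value exists for these counts. Ccl22 had 269 against 109 UMIs (log2 ratio 1.38, interval 1.05 to 1.71), in 36 against 29 cells, and 10 cells held 79.6% and 78.9% of them. The others were Cxcl17 with 76 against 36 (1.15, 0.56 to 1.77), Ccl12 267 against 131 (1.10, 0.80 to 1.42), Ccl5 1603 against 799 (1.08, 0.96 to 1.21) and Cxcl9 106 against 54 (1.05, 0.56 to 1.55). With Scrublet-called doublets removed 3 members stayed past 2-fold, without Ccl5 (0.86) and Cxcl9 (0.72). With equal class shares in both libraries 2 did, Ccl22 and Ccl12, without Cxcl17 (0.74), Ccl5 (0.83) and Cxcl9 (0.95). Within classes, Ccl12 had a log2 ratio of 0.96 in macrophage-like cells, Ccl22 of 0.78 in dendritic-like cells and Ccl5 of 0.16 in T or innate lymphoid-like cells (2141 against 1916 CPM). Ccl22 in Langerhans-like cells was at 112 against 30.4 CPM, from 37 against 17 UMIs, and Cxcl9 in synovial fibroblast-like cells had 31 against 0 UMIs, all from 1 cell. For Ccl5, T or innate lymphoid-like cells gave 0.284% of the UMIs of the LNR library and 0.185% of the control, and unnamed clusters held 31.9% and 11.8% of Ccl5 UMIs. Cxcl9 had 29.2% of its LNR UMIs in 1 cell, and its log2 ratio was 0.75 without the top cell of each library. The median over the 44 members was 0.27 against 0.02 over all genes tested, with 36 of 44 members and 9254 of 16085 genes above 0. Summed levels of macrophage, neutrophil and fibroblast markers were also higher in LNR: 385 against 314 CPM for 6 macrophage markers, 830 against 679 for 6 neutrophil markers and 6299 against 5392 for 6 fibroblast markers, while 5 T cell markers were at 32.5 against 33.7 and 6 basal keratinocyte markers at 6389 against 6812. The part of cell composition in the summed ratios was not tested beyond these values. One cluster of cells with hair keratins held 6 LNR and 391 LNR control cells and stayed unnamed.

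**Figure D4:**
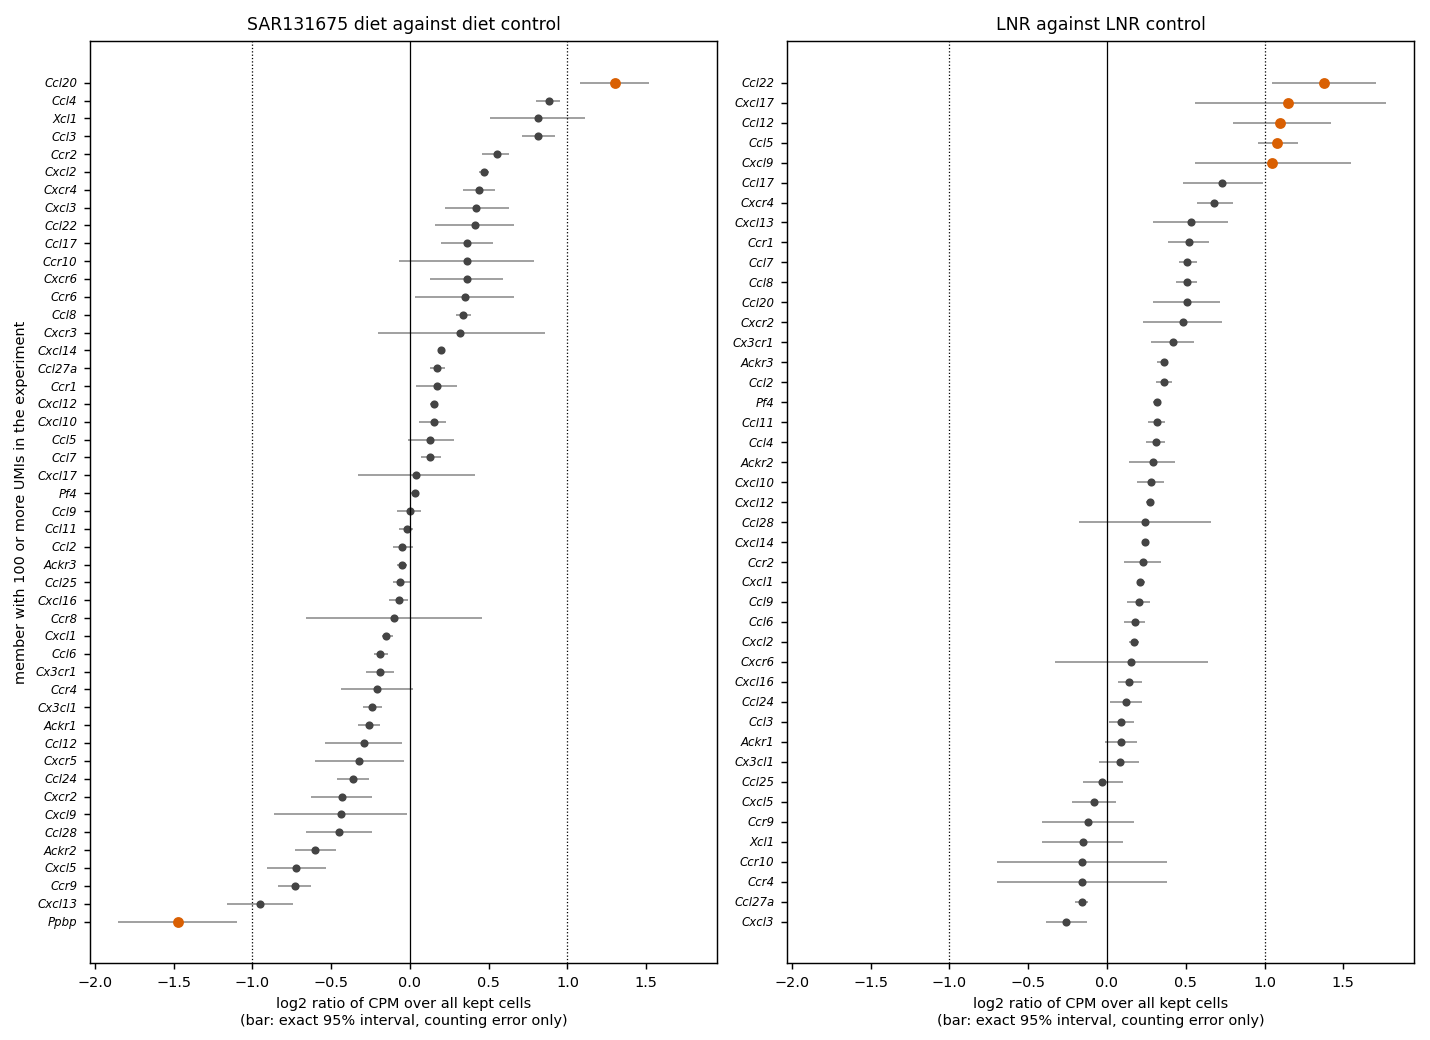
log2 ratio of CPM over all kept cells with its 95% counting interval for 48 and 43 members with 100 or more UMIs in the pair, SAR131675 diet against diet control and LNR against LNR control; dotted lines mark 2-fold. Ccl20 lies above and Ppbp below the lines for the diet, and Ccl22, Cxcl17, Ccl12, Ccl5 and Cxcl9 lie above them for LNR.

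Within cell classes, 235 member-by-class pairs could be read for the diet, of which 18 (7.66%) were higher by 2-fold or more and 10 (4.26%) lower, where 0.438% and 0.369% of 168201 gene-by-class pairs were. For LNR 220 pairs gave 13 (5.91%) higher and 7 (3.18%) lower, where 0.268% and 0.187% of 125920 were. Few of these lay in the class that led a member's level. Of 42 pairs in leading classes 2 were past 2-fold for the diet, Xcl1 in T or innate lymphoid-like and Ccl2 in mixed myeloid cells (range of log2 ratios -1.17 to 1.31, median 0.07). Of 37 for LNR, 1 was, Cxcl3 in neutrophil-like cells (-1.03 to 0.96, median 0.06). By member, the pairs past 2-fold were most often of Cxcl2 (5), Pf4 (5) and Cxcl14 (3) for the diet and of Cxcl2 (5), Cxcl10 (4) and Ccl7 (2) for LNR. In 13 of all pairs past 2-fold, a single cell held over 50% of the member's UMIs in 1 of the libraries. Under each alternative processing run, 12 of 28 pairs stayed past 2-fold for the diet and 3 of 20 for LNR. A further 3 diet pairs, Ccl2, Ccl3 and Ccl4 in mixed myeloid cells, did so where they had a value, since that class was absent at the finer clustering.

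Ccl20 in suprabasal keratinocyte-like cells was past 2-fold in both experiments under all alternatives. It had 186 against 25 UMIs for the diet (2.23 against 0.297 CPM, log2 ratio 2.91, interval 2.30 to 3.57), in 43 against 18 cells, with 33.9% of the UMIs in 1 cell of the SAR131675 diet library. For LNR it had 90 against 39 UMIs (3.51 against 1.39 CPM, log2 ratio 1.33, interval 0.77 to 1.91), in 21 and 21 cells, with 25.6% and 28.2% of the UMIs in 1 cell. In the same suprabasal class 6 follicle or nail keratinocyte markers summed to 209 against 135 CPM for the diet (6 of 6 higher) and 261 against 332 for LNR (1 of 6 higher), and 6 neutrophil markers to 37.4 against 1.45 (3 of 6 higher) and 6.82 against 4.97 (4 of 6 higher); their part in the Ccl20 ratios was not tested. Basal keratinocyte-like cells had Ccl20 log2 ratios of 0.84 (0.51 to 1.18) and 0.21 (-0.12 to 0.54). Suprabasal keratinocyte-like cells did not lead for Ccl20 in any library. Sebaceous gland-like cells were highest in the SAR131675 diet library (4.6 CPM) and keratinocyte-like cells of follicle and nail type in the diet control (2.29). Osteoblast lineage-like cells were highest in the LNR pair (9.53 and 6.34), and only in LNR was the lead beyond counting error. The cells with a Ccl20 UMI were 0.825% and 0.334% of suprabasal keratinocyte-like cells in the diet pair and 1.02% and 0.899% in the LNR pair, and 0.274%, 0.0782%, 0.293% and 0.218% at 1500 UMIs per cell.

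In T or innate lymphoid-like cells, 120 against 86 in the diet pair, Xcl1 was at 386 against 156 CPM (log2 ratio 1.31, interval 0.93 to 1.70). Cxcr4 was at 210 against 101 (1.06, 0.58 to 1.56), and both were past 2-fold under every alternative. An Xcl1 UMI was found in 32 against 18 of these cells. A cluster of 25 and 18 of them held 67.9% and 45.9% of all Xcl1 UMIs, at 1706 against 659 CPM. Unnamed cells held 13.2% and 32.6%, and over all kept cells the Xcl1 log2 ratio was 0.81. Xcl1 had the other direction in this class of the LNR pair, at 461 against 807 CPM (log2 ratio -0.81, interval -1.10 to -0.52). Over all kept cells of the LNR pair its log2 ratio was -0.15 (-0.41 to 0.10), from 231 against 271 UMIs. In that pair a cluster of 34 against 39 T or innate lymphoid-like cells held 74% and 70.8% of all Xcl1 UMIs, at 2225 against 2571 CPM. The whole class had 179 against 141 cells, and the part of cluster make-up in its ratio was not tested. No test compared the experiments. In neutrophil-like cells of the diet pair Ccl4 was at 7199 against 3887 CPM (log2 ratio 0.89, interval 0.78 to 1.00), Ccl3 at 0.71 (0.55 to 0.86) and Cxcl2 at 0.14 (0.10 to 0.18). In the mixed myeloid cells of the diet pair, Ccl4 had a log2 ratio of 1.38, Ccl3 of 1.14 and Ccl2 of -1.17, where the 6 neutrophil markers summed to 5234 against 11361 CPM. For LNR, neutrophil-like Cxcl3 was at 385 against 786 CPM (-1.03, -1.25 to -0.81), -0.97 without the top cell of each library and -0.06 at the finer clustering. Macrophage-like Pf4 differed little, with log2 ratios of 0.05 and 0.04. Ackr2 in synovial fibroblast-like cells was at 32.2 against 67.8 CPM for the diet (log2 ratio -1.07, interval -1.32 to -0.83) and at 67.0 against 53.8 for LNR (0.32, 0.11 to 0.52). In lymphatic endothelial-like cells Ackr2 had log2 ratios of -0.34 (-0.69 to 0.01) for the diet and -0.58 (-1.03 to -0.14) for LNR, and Ackr3 of -0.17 (-0.36 to 0.02) and 0.15 (-0.08 to 0.38).

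Some differences outside the leading class moved with markers of the leading class and others did not. Pf4 in Schwann-like cells had a log2 ratio of 6.63 for the diet, from 7 cells against 1, and of 1.28 with Scrublet-called doublets removed. The 6 macrophage markers summed to 104 against 1.62 CPM there, with all 6 higher and 4 of 6 at 0 in the control. Osteoblast lineage-like cells had Pf4 at 4.42 on the log2 scale, from 7 cells against 5. Macrophage markers there were at 40.5 against 4.73 CPM, with all 6 higher. In sweat gland-like cells Pf4 was at -4.89, from 6 cells against 13, with macrophage markers at 5.58 against 132 CPM and none of 6 higher. Cxcl2 in synovial fibroblast-like cells had a log2 ratio of 3.13 for the diet, where 1 cell held 66.5% and 87.9% of the UMIs and the 6 neutrophil markers summed to 11 against 0.193 CPM (2 of 6 higher, 4 and 5 of 6 at 0). For LNR the same class had a Cxcl2 log2 ratio of 1.76, with neutrophil markers at 6.89 against 6.42 CPM. Cxcl2 in the sweat gland-like cells of the LNR pair was at 5.49 on the log2 scale, from 8 cells against 2, with neutrophil markers at 140 against 0 CPM (4 of 6 higher, 2 and 6 of 6 at 0). The part of these markers in the ratios was not tested. Cxcl2 in fibroblast-like cells was at -1.53 for the diet, in 41 and 38 cells, with neutrophil markers at 2.85 against 1.24 CPM. In suprabasal keratinocyte-like cells Cxcl2 was at -1.85 for the diet with neutrophil markers at 37.4 against 1.45 CPM, and 0.72 without the top cell of each library. In dendritic-like cells of the diet pair Cxcl2 was at -1.65 with neutrophil markers at 8.33 against 6.93 CPM. Pf4 was at 2.88 there, with macrophage markers at 1313 against 1201. This Pf4 ratio came from 10 cells against 5, and 1 cell held 62.4% and 64.3% of the UMIs.

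Of 12 other chemoattractants and receptors, such as C5ar1 and Fpr1, 11 could be read for the diet and 12 for LNR, with 0 past 2-fold in either and medians of 0.01 and 0.21 on the log2 scale. Of 10 inducers and feedback genes of inflammatory chemokines, such as Il1b, Tnf and Nfkbia, 8 could be read in each, with 0 past 2-fold and medians of 0.14 and 0.22. All 13 genes of receptor signalling, such as Gnai2 and Dock2, could be read, with 0 past 2-fold and medians of -0.02 and 0.19.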

How the data were processed

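Single-cell RNA was measured with 10x Genomics chemistry in 4 libraries, each a pool of 10 mice. The deposited matrices hold unnormalized UMI counts, aligned per the labels to GRCm39 with Cell Ranger 6.1.2; the matrix headers give 6.1.2 for the LNR pair and 8.0.1 for the diet pair, whose default counts intronic reads, and whether that was used is not given in the sources used here. Cells with 200 to 5500 genes, at most 30000 UMIs and at most 10% mitochondrial UMIs were kept. Each experiment was clustered alone (scanpy 1.11.5, 2000 variable genes without the members, 30 components, 20 neighbours, Leiden resolution 0.7). Classes were named from marker lists where 3 or more markers were detected and the 10 leading genes did not go against the name; 1 of the 6 T cell markers has no row in the files. Doublets were left in. Scrublet, given expected rates of 23.3%, 19.2%, 15.9% and 16.5%, called 4.67% of cells in the SAR131675 diet library, 0.903% in the diet control, 7.41% in LNR and 7.22% in the LNR control, so removing called cells took unequal shares from the diet pair. Counts were summed per library and class and scaled to CPM. Intervals at 95% are exact Poisson (CPM), Clopper-Pearson (shares) and exact conditional binomial (ratios), from scipy 1.17.1. Ratios needed 100 UMIs in the pair and, within classes, 50 cells in each library; called means 2-fold or more. The text names every member with 1000 or more UMIs, every receptor of an axis and every member past 2-fold over all cells or in a class. Results of 1 member are not reported here, though it is counted in the totals. The symbol rule for members and the lists were chosen with earlier results of these data known. The ratio scripts were tested on simulated data. Promoters came from RefSeq GRCm38.p6, another build than that of the counts, and served for sequence and gene order only.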

Additional observations from a re-analysis of the deposited data

Results flagged for a closer look

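In the SAR131675 diet library an unnamed cluster of 69 cells, with Skap1 and Il7r among its leading genes, had Cxcr6 at 295.0 CPM from 108 UMIs. T or innate lymphoid-like cells, the named class with the highest level, were at 286 CPM, an average over clusters, and the larger T or innate lymphoid-like cluster, of 95 cells, had Cxcr6 at 342 CPM from 188 UMIs. The difference was not tested. Only unnamed clusters with 50 or more cells and members with 100 or more UMIs there were compared in this way.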

How the results depend on the processing

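The main counts were 2 members past 2-fold over all cells for the diet and 5 for LNR, 28 and 20 member-by-class pairs, and 26 members with 1 leading class in all libraries. At 1.5-fold the counts were 10 members and 66 pairs for the diet and 7 members and 51 pairs for LNR, and with a minimum of 30 UMIs 60 and 54 pairs. For LNR, 3 members were past 2-fold with Scrublet-called cells removed and 2 with equal class shares, and 10 pairs at resolution 1.2. Members with 1 leading class numbered 21 at resolution 1.2 (19 of them among the 26), 24 with Scrublet-called cells removed, 33 as a mean over cells and 27 to 30 leaving out each library in turn. Equal class shares and the restriction to classes common to all libraries (33 members) were chosen after seeing the data. Ratios that changed sign were Cxcl14 in blood endothelial-like cells for the diet (-0.70) and Cxcl12 in Schwann-like cells for LNR (-0.34) with Scrublet-called cells removed, Cxcl14 in sebaceous gland-like cells for the diet as a mean over cells (-0.04), Cxcl2 in suprabasal keratinocyte-like cells for the diet without the top cells (0.72), and, at resolution 1.2 for LNR, Ccl3 in monocyte-like (0.00) and Cxcl1 in neutrophil-like cells (0.08). The cause was not tested. Within classes 186 other values stayed within the counting interval and 35 did not. Infinite or undefined ratios are outside this tally, such as Pf4 in Schwann-like cells of the diet pair without the top cells. Within-class counts without upper limits on genes and UMIs were not run. No paired analysis was possible because each condition is 1 library. Depth limits members under 100 UMIs, for which no ratio is given.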

Other observations

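The unnamed cluster of the diet pair with Skap1 and Il7r among its leading genes held 69 and 55 cells, with Ccr6 at 235 and 234 CPM and Ccr8 at 68.3 and 108, against 107 and 98.9 and 26.8 and 40 in T or innate lymphoid-like cells. Ppbp reached 10753 and 15097 CPM in the unnamed cluster of 3 and 6 cells of the diet pair that was led by Nrgn and Gp9.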
